A study of Mus musculus with 9 samples.

Results

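The metallothioneins and their zinc-responsive partners were examined in mouse retinal explants cultured with and without 2-deoxy-D-glucose (2-DG), a glucose analogue that blocks glycolysis. The 5 genes were taken by symbol from the 55487 genes of the count table: Mt1 (ENSMUSG00000031765), Mt2 (ENSMUSG00000031762), Mt3 (ENSMUSG00000031760), Mtf1 (ENSMUSG00000028890) and Slc30a1 (ENSMUSG00000037434). RNA-seq was available for 9 libraries, 5 of control explants and 4 of explants with 2-DG, and all came from wild-type C57BL/6J retinas at postnatal day 28. Retinas without sclera and pigment epithelium were cultured for 48 h in 5 mM glucose, with 20 mM 2-DG added in the treated group, and the protocol goes on to 1 h in Krebs' Ringer medium, adding that retinas for RNA were processed at once, so whether these had the 1 h step is not clear. The protocol field lists 2-DG for all 9 libraries, so the groups were read from the sample titles. Sources used here call the libraries biological replicates without saying whether each came from a separate animal, so the p-values measure the spread between these libraries, some of which may be technical.

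Metallothioneins are small, cysteine-rich proteins that bind zinc and copper in the cytosol. Zinc that exceeds the buffering capacity of a cell binds the zinc-finger transcription factor MTF1, which then occupies metal response elements and drives Mt1, Mt2 and Slc30a1, the last of which encodes the zinc exporter ZnT1 of the plasma membrane. Mt1 and Mt2 are also induced by glucocorticoids, cytokines and oxidative stress, and in the retina they are known for expression in Müller glia. Mt3 is the form found mainly in neural tissue and is less responsive to metals.

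The mouse metallothionein genes lie on the plus strand of chromosome 8 (GRCm38) within 43131 bases, in the order Mt4 (94137197 to 94139031), Mt3 (94152607 to 94154146), Mt2 (94172664 to 94173568) and Mt1 (94179082 to 94180327). Mtf1 is on chromosome 4 (124802104 to 124849800) and Slc30a1 on chromosome 1 (191906767 to 191913247). RefSeq promoter windows (GRCm38.p6, 250 bases before to 50 bases after each start) matched all 5 genes and Mt4, and were searched on both strands for the metal response element core, spelled TGCACNC or TGCGCNC. Mt2 held 4 cores, Mt1 held 3, Slc30a1 held 2, Mt3 and Mt4 held 1 each and Mtf1 held 0, and no cores overlapped. Of all 32851 promoter windows, 25.7% held at least 1 core, 7.11% at least 2, 1.97% at least 3 and 0.518% at least 4. The parts upstream of the start (250 to 15 bases before it) are shown for the metal-inducible genes because these windows carry the shared element, with the cores in capitals. They lie at chr8:94178839-94179074 (Mt1), chr8:94172368-94172603 (Mt2) and chr1:191906531-191906766 (Slc30a1), plus strand. A match is a description of letters and not a measured binding site.
Mt1: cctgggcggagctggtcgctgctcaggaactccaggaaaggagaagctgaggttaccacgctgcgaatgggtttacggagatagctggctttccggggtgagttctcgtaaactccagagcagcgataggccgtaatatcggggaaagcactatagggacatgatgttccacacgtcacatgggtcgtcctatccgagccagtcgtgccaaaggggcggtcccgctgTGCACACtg
Mt2: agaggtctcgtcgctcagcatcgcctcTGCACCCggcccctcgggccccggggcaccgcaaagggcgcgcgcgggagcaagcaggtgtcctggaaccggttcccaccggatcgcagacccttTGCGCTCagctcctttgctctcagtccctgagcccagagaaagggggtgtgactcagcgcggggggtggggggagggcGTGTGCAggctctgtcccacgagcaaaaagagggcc
Slc30a1: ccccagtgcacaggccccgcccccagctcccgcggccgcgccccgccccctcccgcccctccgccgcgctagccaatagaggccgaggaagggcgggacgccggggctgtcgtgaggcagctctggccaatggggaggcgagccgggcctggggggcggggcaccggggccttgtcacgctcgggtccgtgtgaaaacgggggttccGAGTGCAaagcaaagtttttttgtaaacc

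Other annotated Mt1 transcripts start further on, at 94179211 (Mt1-203) and 94179241 (Mt1-202). The bases just before those starts lay past the searched window, so the count of Mt1 cores covers this window only. The other cores of Mt1 lay just past the RefSeq start used for the window, together in the 27 bases of chr8:94179090-94179116 shown here.
Mt1 start site: cTGCACTCcgcccgaaaagTGCGCTCg

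Library totals ran from 11318087 to 51802230 estimated counts, so that 3 counts, the level taken as the floor of detection, stood for 0.0556 to 0.255 CPM (counts scaled to a common library size). Each of the 5 genes had between 293 and 10953 counts in every library, far over this floor. All CPM values except those named as deposited use library sizes scaled by the trimmed mean of M values (TMM), and fold changes and p-values come from edgeR's quasi-likelihood test over all 21049 genes kept. Marker genes of rods, bipolar cells, Müller glia and the other retinal classes were present in every library, but some libraries stood apart. Control replicate 2 had 39608 CPM of summed rod markers, against 4901 to 14991 CPM in the other libraries. In 2-DG replicate 4, Slc7a11 reached 1500 CPM against 171 to 345 CPM in the other 2-DG libraries. In 2-DG replicate 3, cone markers summed to 634 CPM, against 37.9 to 86.1 CPM in all other libraries except control replicate 2 (511 CPM). Control replicate 5 had the lowest bipolar sum (153 CPM against 295 to 2830 CPM) and the highest Müller glia sum (7241 CPM). Endothelial and pericyte markers summed to 1890 CPM there and to 2452 CPM in 2-DG replicate 4, against 228 to 998 CPM elsewhere. Several values that moved with a single library are given with and without it, but not all of them.

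Mt1 and Mt2 RNA varied widely among control explants, and their means were lower with 2-DG without passing the test. Mt1 measured 329.9, 99.0, 116.0, 225.5 and 313.1 CPM in control replicates 1 to 5 and 141.6, 150.8, 156.5 and 153.3 CPM in 2-DG replicates 1 to 4. All 4 treated libraries fell below the control mean, yet control replicates 2 and 3 were lower than any treated library, so the groups overlapped. The means were 216.7 ± 107.4 CPM (SD, n = 5) and 150.5 ± 6.43 CPM (SD, n = 4), a log2 fold change of −0.53 (SE 0.36, 95% interval −1.33 to 0.28). The adjusted p was 0.790.

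Mt2 measured 325.9, 62.6, 171.8, 282.8 and 353.9 CPM in the controls and 118.1, 143.5, 172.5 and 119.1 CPM with 2-DG. Control replicate 2 was again the lowest library and control replicate 3 sat at the level of the highest 2-DG library. The means were 239.4 ± 120.7 CPM (SD, n = 5) and 138.3 ± 25.7 CPM (SD, n = 4), and the log2 fold change was −0.79 (SE 0.43, 95% interval −1.74 to 0.16, adjusted p = 0.739). The intervals of both inducible genes included 0.

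**Figure D1:**
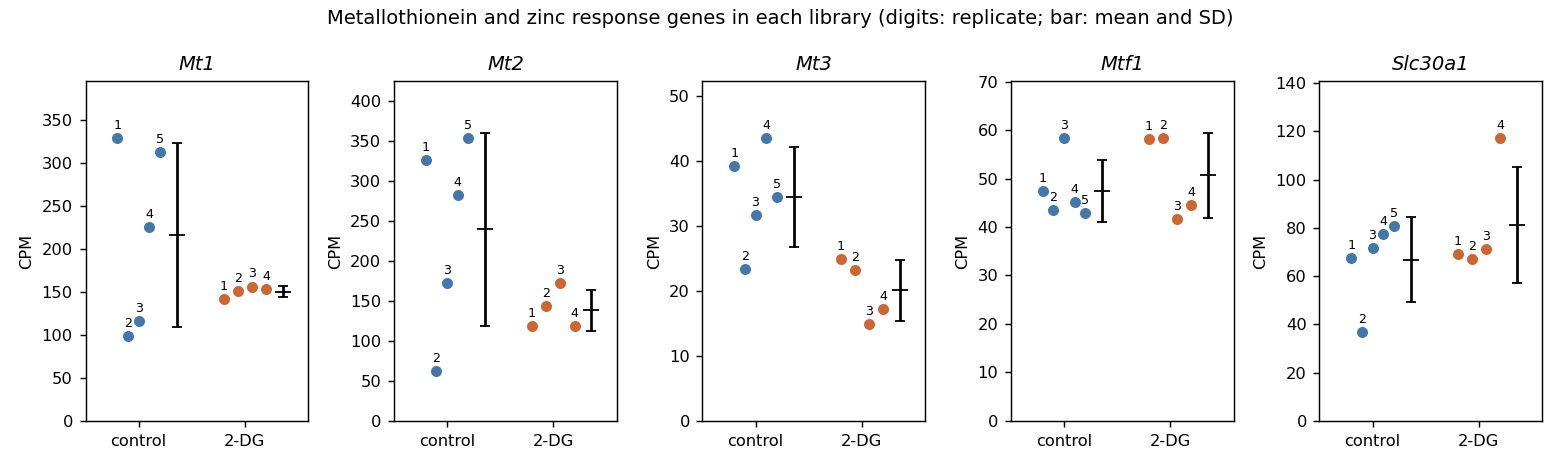
CPM of Mt1, Mt2, Mt3, Mtf1 and Slc30a1 in each library, with points numbered by replicate and bars at the mean and SD of 5 control and 4 2-DG libraries. Mt1 spans 99.0 to 329.9 CPM in the controls and 141.6 to 156.5 CPM with 2-DG, and in Mt3 only control replicate 2 (23.3 CPM) reaches into the 2-DG range.

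The spread itself differed between the groups for Mt1. Its coefficient of variation was 49.6% among controls and 4.27% among 2-DG libraries. Over the 11243 genes with a mean of at least 10 CPM, the median coefficients were 31.0% and 26.5%, and 76.4% of these genes had a lower value than Mt1 among controls and 1.01% with 2-DG. For Mt2 the coefficients were 50.4% and 18.6%, and 77.2% and 30.5% of the genes had a lower value. These figures were looked at after the per-library values were seen and describe the libraries without a test.

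The pair moved together from library to library. Their summed level was 656, 162, 288, 508 and 667 CPM in the controls and 260, 294, 329 and 272 CPM with 2-DG. The ratio of Mt1 to Mt2 ran from 0.676 to 1.58 in controls and from 0.908 to 1.29 with 2-DG, so neither gene dominated in CPM. Pearson's r between log2 CPM of Mt1 and Mt2 was 0.90 over the 9 libraries and 0.88 without control replicate 2. Libraries share depth, scaling and cell composition, and this r is given as a description. Mt3 followed the pair less closely, with r of 0.56 to Mt1 and 0.63 to Mt2.

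**Figure D2:**
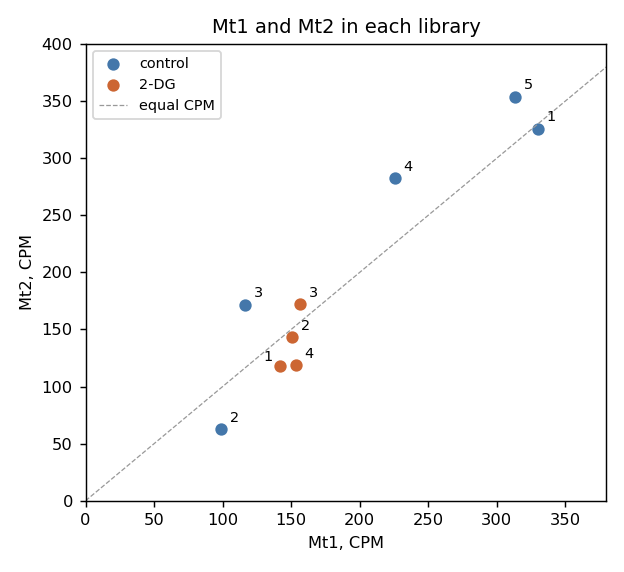
Mt1 against Mt2 in CPM, 1 point per library, numbered by replicate, with the dashed line at equal CPM. The 2-DG libraries cluster between 141.6 and 156.5 CPM of Mt1, whereas the control libraries extend along the line from replicate 2 to replicates 1 and 5.

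Mt3, the neural metallothionein, gave the smallest p of the 5 genes. It measured 39.3, 23.3, 31.8, 43.6 and 34.4 CPM in the controls and 24.9, 23.2, 14.97 and 17.3 CPM with 2-DG. The groups overlapped because control replicate 2 was lower than 2-DG replicate 1, and the other controls were higher than every treated library. The means were 34.5 ± 7.71 CPM (SD, n = 5) and 20.1 ± 4.72 CPM (SD, n = 4), a log2 fold change of −0.78 (SE 0.25, 95% interval −1.34 to −0.22). Its p ranked 399 among 21049 genes, and the adjusted p was 0.553. On the deposited CPM scale, which was normalized separately by the authors, the lowest control (25.8 CPM) lay above the highest 2-DG library (24.6 CPM). The share of all genes without overlap was not counted on that scale.

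In all, 0 of 5 genes passed an adjusted p of 0.05, as did 0% of all genes tested. Mt3 alone had an unadjusted p under 0.05, 1 of 5 genes, against 7.25% of all genes (4.83% lower and 2.42% higher with 2-DG). None of the 5 genes had groups without overlap, which 2.93% of all genes had (1.41% lower and 1.52% higher with 2-DG). DESeq2 passed 0 of the 5 genes and 1.02% of all genes, whereas limma-voom with sample quality weights passed Mt3 (adjusted p = 0.0397) and 5.81% of all genes. Without control replicate 2, 3 of 5 genes had an unadjusted p under 0.05, all lower with 2-DG, against 8.99% of 20632 genes (6.07% lower). The log2 fold changes were then −0.71 for Mt1 (SE 0.31, adjusted p = 0.531), −1.04 for Mt2 (SE 0.26, adjusted p = 0.172) and −0.90 for Mt3 (SE 0.22, adjusted p = 0.165), and 0 of 5 genes passed, as did 0.0775% of all genes. Without control replicate 1 or 5, the highest controls for Mt1, its log2 fold change was −0.33 or −0.36. Control replicate 2 was the only control within the 2-DG range of Mt3, so leaving it out had to part those groups. The share of all genes without overlap was not counted in that set of libraries. In Mt2 the lowest remaining control (171.8 CPM) still lay just below the highest 2-DG library (172.5 CPM). Without 2-DG replicate 3, the lowest library for Mt3, its log2 fold change was −0.66. Leaving out control replicate 2 and 2-DG replicate 4 together gave −0.72, −0.97 and −0.83 for the 3 genes, with adjusted p of 0.349, 0.161 and 0.149.

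**Figure D3:**
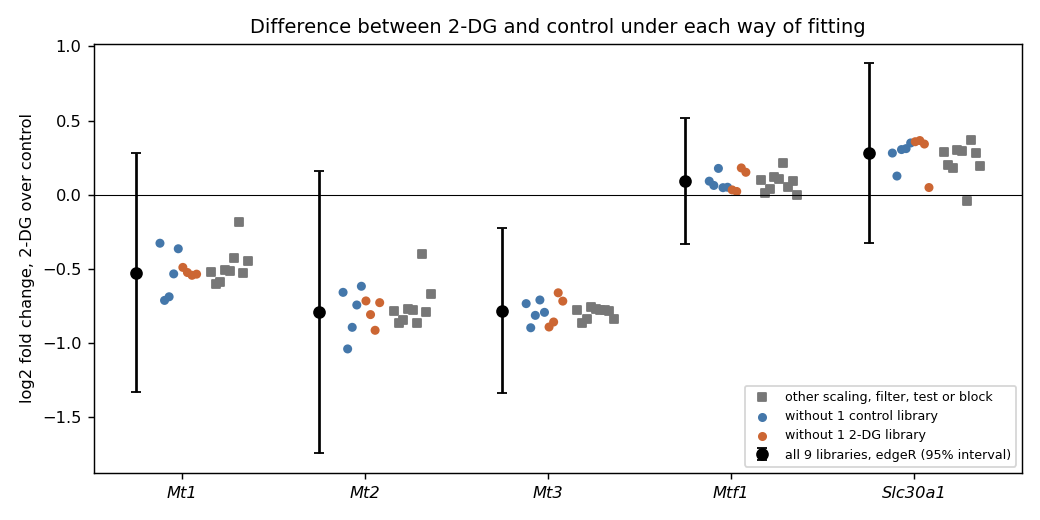
Log2 fold change of 2-DG over control for each gene, with all 9 libraries (black, 95% interval), without 1 library (circles, blue for a control and orange for a 2-DG library) and under other scalings, filters, tests or a replicate block (grey squares). Mt1, Mt2 and Mt3 stay below 0 in every alternative shown, while Mtf1 and Slc30a1 lie near or above 0.

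The fourth metallothionein, Mt4, whose product is known from stratified squamous epithelia, had 0 to 9 counts per library (0 to 0.237 CPM) and was not tested. The closest protein-coding neighbours of the cluster did not pass either. Ogfod1, a prolyl hydroxylase of a ribosomal protein, had a log2 fold change of 0.32 (adjusted p = 0.853), and Bbs2, a subunit of the ciliary BBSome complex, had −0.83 (adjusted p = 0.751), with 273.6 CPM in control replicate 2 against 47.5 to 91.9 CPM in all other libraries. Nup93, a nuclear pore scaffold gene that starts 34237 bases from the cluster and extends beyond 100 kb, had 0.29 (adjusted p = 0.775).

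Estimated counts per transcript showed which annotated forms carried these levels. The 5 genes had 15 transcripts, 13 of which were tested among 62900. Of these, 0 passed an adjusted p of 0.05 (0% of all transcripts), 4 had an unadjusted p under 0.05, all lower with 2-DG (3.45% of all transcripts, 2.28% lower), and 3 had groups without overlap, all lower (1.87% of all transcripts, 0.968% lower). These transcripts overlap within a gene and their reads were divided by estimation, an uncertainty that the tables do not hold.

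Mt1 has 3 annotated transcripts, a fully spliced one (Mt1-201, 549 bases in 3 exons), one of a single exon that contains both introns (Mt1-202, 1085 bases) and one that contains 1 intron (Mt1-203, 633 bases in 2 exons). Mt1-202 measured 22.8, 4.46, 8.61, 6.32 and 19.5 CPM in the controls and 0.774, 1.27, 3.75 and 2.56 CPM with 2-DG. Mt1-203 measured 8.95, 2.45, 2.37, 3.95 and 8.64 CPM in the controls and 1.01, 0.403, 0.883 and 1.15 CPM with 2-DG. Every control exceeded every 2-DG library in both transcripts, control replicate 2 included.

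The log2 fold changes were −2.55 for Mt1-202 (SE 0.67, 95% interval −4.04 to −1.05) and −2.62 for Mt1-203 (SE 0.60, 95% interval −3.96 to −1.27), with adjusted p of 1.00 for each. Both had an unadjusted p under 0.05 in 10 of 10 alternatives. The spliced Mt1-201 had −0.56 (SE 0.38, 95% interval −1.41 to 0.29). Intron-holding forms made up 9.46, 6.47, 9.38, 4.36 and 7.88% of Mt1 transcript CPM in the controls and 1.32, 1.16, 3.32 and 2.17% with 2-DG, with means of 7.51 ± 2.14% (SD, n = 5) and 1.99 ± 0.988% (SD, n = 4). This share was not a planned measure and uses the low counts of these same transcripts, so it is no separate support for their difference. Over the whole library, transcripts that hold an intron of their gene took 9.74 to 12.6% of counts in the controls and 8.86 to 12.9% with 2-DG. The 9302 tested transcripts of this kind had a median log2 fold change of 0.014, 49.1% were lower and 1.10% were lower without overlap.

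**Figure D4:**
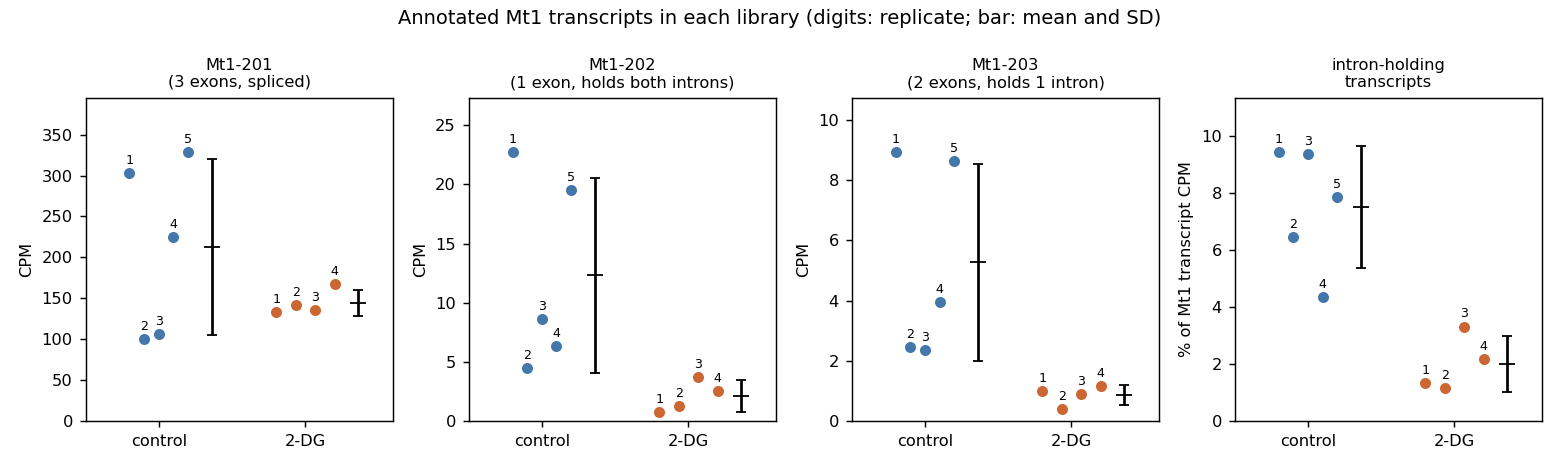
CPM of the 3 annotated Mt1 transcripts in each library and the percent of Mt1 transcript CPM in intron-holding forms, with points numbered by replicate and bars at the mean and SD. Mt1-202 and Mt1-203 do not overlap between groups, Mt1-201 does, and the share is 4.36 to 9.46% in controls and 1.16 to 3.32% with 2-DG.

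Mt3 also has 3 annotated transcripts, none of which holds an intron. The short form Mt3-203 measured 2.00, 1.12, 3.23, 3.61 and 4.46 CPM in the controls and 0.464, 1.09, 0.920 and 0.832 CPM with 2-DG. The groups did not overlap, although control replicate 2 and 2-DG replicate 2 were nearly equal, and the log2 fold change was −1.79 (SE 0.52, 95% interval −2.94 to −0.63). For Mt3-202 it was −1.40 (SE 0.62), and its unadjusted p stayed under 0.05 in 1 of 10 alternatives. Mt3-201, the form with the highest mean CPM in both groups, differed by −0.42 (SE 0.31). Mt2 was carried by Mt2-201, with 67.4 to 399 CPM in controls, 114.7 to 152.4 CPM with 2-DG and a log2 fold change of −0.89 (SE 0.44, 95% interval −1.87 to 0.086).

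Mtf1, the zinc sensor, was at similar levels in both groups. It measured 47.3, 43.5, 58.4, 45.2 and 42.9 CPM in the controls and 58.1, 58.4, 41.7 and 44.6 CPM with 2-DG. The treated libraries split, with replicates 1 and 2 at the level of the highest control and replicates 3 and 4 near the lowest. The means were 47.5 ± 6.35 CPM (SD, n = 5) and 50.7 ± 8.79 CPM (SD, n = 4), and the log2 fold change was 0.10 (SE 0.19, 95% interval −0.33 to 0.52, adjusted p = 0.923). The interval leaves room for a change of up to 0.52 on the log2 scale.

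Slc30a1, the zinc exporter gene driven by MTF1, had a higher mean with 2-DG and did not pass the test. It measured 67.5, 36.8, 71.8, 77.4 and 80.6 CPM in the controls and 69.3, 67.0, 71.1 and 117.4 CPM with 2-DG. Apart from the low control replicate 2 and the high 2-DG replicate 4, the libraries lay between 67.0 and 80.6 CPM. The means were 66.8 ± 17.5 CPM (SD, n = 5) and 81.2 ± 24.2 CPM (SD, n = 4), with a log2 fold change of 0.28 (SE 0.27, 95% interval −0.32 to 0.88, adjusted p = 0.837). Without 2-DG replicate 4 it was 0.049, and without both of these libraries it was −0.11 (adjusted p = 0.764). Pearson's r of Slc30a1 was 0.38 with Mt1 and 0.45 with Mt2 over 9 libraries, and −0.057 and −0.23 without control replicate 2, the lowest library for all 3 genes. The difference between the fold changes of Slc30a1 and the metallothioneins was not tested.

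Per kilobase of union exon, the control level was highest for Mt2 (407 ± 205 CPM per kb, SD, n = 5), followed by Mt1 (174 ± 86.2), Mt3 (32.3 ± 7.23), Slc30a1 (12.7 ± 3.34) and Mtf1 (5.33 ± 0.713). The 2-DG levels kept this order, at 235, 121, 18.8, 15.5 and 5.69 CPM per kb. The ranges of Mt1 and Mt2 overlapped among controls, and those of Mt3 and Slc30a1 overlapped with 2-DG. Dividing each transcript by its own length placed Mt1 (407 CPM per kb) close to Mt2 (492) in controls and both near 266 and 265 with 2-DG, so their order depended on the length used. By that measure Mt3 was 71.1 ± 14.8 CPM per kb in controls and 39.9 ± 9.60 with 2-DG, and its groups did not overlap. The share of all genes without overlap was not counted by that measure.

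The other zinc transporters are split into exporters of the ZnT family, which lower cytosolic zinc, and importers of the ZIP family, which raise it. Of 8 other ZnT genes tested, 4 were higher and 4 lower with 2-DG, 0 had an unadjusted p under 0.05 and the median log2 fold change was −0.012, against −0.0089 over all genes. Without control replicate 2 these medians were −0.18 and 0.032. The smallest p belonged to Slc30a3, which loads zinc into synaptic vesicles (−0.89, adjusted p = 0.792), and Slc30a6, a transporter of the Golgi (0.26, adjusted p = 0.832). Slc30a3 rested on control replicate 1, at 8.34 CPM against 1.13 to 3.51 CPM in the other controls, and without it the log2 fold change was −0.22. Slc30a6 had 0.10 without 2-DG replicate 2 and 0.43 without 2-DG replicate 4. Of 13 ZIP genes tested, 8 were higher and 5 lower, with a median of 0.10 (−0.010 without 2-DG replicate 4), and 2 had an unadjusted p under 0.05, both higher, against 7.25% of all genes (2.42% higher).

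Slc39a7, which releases zinc from the endoplasmic reticulum and Golgi, measured 116.7, 92.4, 89.9, 112.7 and 98.5 CPM in the controls and 155.2, 164.8, 114.8 and 182.3 CPM with 2-DG. Its log2 fold change was 0.60 (SE 0.20, adjusted p = 0.578), higher than the control mean in 4 of 4 libraries, and its unadjusted p was under 0.05 in 19 of 19 alternatives. Slc39a10, a plasma membrane importer that MTF1 is known to repress, measured 60.03, 27.0, 66.7, 47.7 and 32.8 CPM in the controls and 84.5, 75.6, 91.2 and 57.1 CPM with 2-DG. Its log2 fold change was 0.72 (SE 0.29, adjusted p = 0.656), and its unadjusted p was under 0.05 in 13 of 19 alternatives. In both, 1 treated library lay inside the control range and the other 3 lay above it.

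**Figure D5:**
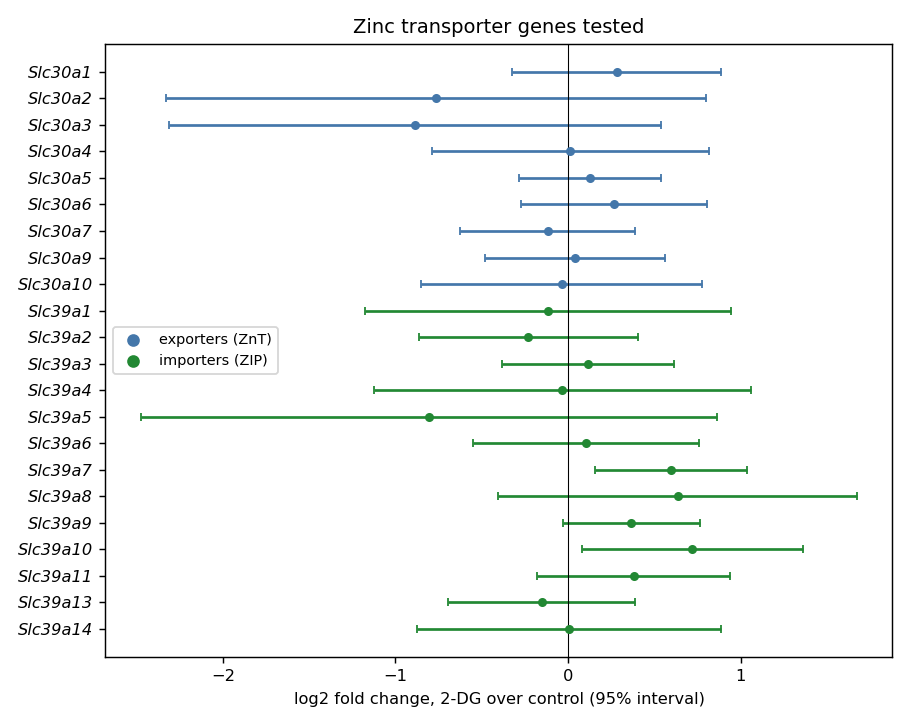
Log2 fold change of 2-DG over control with its 95% interval for every tested zinc exporter (blue) and importer (green). Slc39a7 (0.60) and Slc39a10 (0.72) are the transporters whose unadjusted interval leaves out 0.

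Genes linked to the other known inputs of the metallothionein promoters were read in the same way. Over all 8 lists, which include the zinc transporters above and the copper and iron genes below, 63 genes were tested. Of these, 0 passed an adjusted p of 0.05 and 0 had groups without overlap (2.93% of all genes). An unadjusted p under 0.05 was found for 8 (7.25% of all genes), among them Slc39a7 and Slc39a10 from above. Of 6 genes linked to MTF1, among them the importer gene Slc39a10 counted above, 3 were higher and 3 lower, with a median of 0.054 that was −0.44 without 2-DG replicate 4, and Slc39a10 alone had an unadjusted p under 0.05. Of 8 glucocorticoid-responsive genes, 3 were higher and 5 lower, with a median of −0.095 (−0.20 without 2-DG replicate 3). Fkbp5, a chaperone that is a standard readout of the glucocorticoid receptor, had 0.74 (adjusted p = 0.644, and 0.45 without 2-DG replicate 3), and Errfi1, an inhibitor of EGF receptor signalling, had −1.02 (adjusted p = 0.658). Errfi1 was the listed gene that passed without control replicate 2 and 2-DG replicate 4 together (−1.56, adjusted p = 0.0313), and by limma-voom it passed (−1.50, adjusted p = 0.0128) along with Slc39a7 and Commd1.

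Of 6 genes of the STAT3 pathway, a cytokine route to Mt1 and Mt2, 5 were lower and 1 higher, with a median of −0.60 that was −0.27 without control replicate 5 and −0.86 without control replicate 2. None had an unadjusted p under 0.05, and the smallest p belonged to Lif, the cytokine (−1.11, adjusted p = 0.752), and Socs3, its feedback inhibitor (−0.74, adjusted p = 0.793). Without control replicate 5 they had −0.69 and −0.32, and without control replicate 2 they had −1.38 and −1.01, each then with an unadjusted p under 0.05 (adjusted p of 0.476 and 0.478). Of 6 genes of the NRF2 oxidative stress response, 5 were higher, with a median of 0.78, but the median was −0.20 without 2-DG replicate 4. Gclm, a subunit of the enzyme that starts glutathione synthesis, had 1.62 (adjusted p = 0.673) and Slc7a11, the cystine importer, 1.73 (adjusted p = 0.656), and without that library they had 0.067 and 0.56. In that library Gclm was at 747 CPM, against 69.4 to 115.7 CPM in the other 2-DG libraries.

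Genes that handle copper and iron mostly had higher estimates with 2-DG, without passing the test. Of 10 copper-handling genes, 9 were higher and 1 lower, with a median of 0.25 (0.16 without 2-DG replicate 4), and Commd1, which acts in copper export and protein sorting, had 0.46 (adjusted p = 0.665). Of 8 iron-handling genes, 8 were higher, with a median of 0.40, and Slc40a1, the iron exporter ferroportin, had 2.15 (adjusted p = 0.526). Without 2-DG replicate 4 the iron median was 0.087 and Slc40a1 had 0.92. With control replicate 2 left out as well, the iron median was −0.035 and Slc40a1 had 1.04. Counts of direction over genes of the same libraries are not independent of each other.

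Among 10677 protein-coding genes with at least 10 CPM, those whose log2 CPM most resembled each gene over the 9 libraries were named by Pearson's r. They were Mt2 (0.90), Parp3 (0.87) and Fam214b (0.87) for Mt1, and Oasl2 (0.97), Gbp7 (0.96) and Ifi204 (0.94) for Mt2. For Mt3 they were Irf2bpl (0.94), Padi2 (0.92) and Creb5 (0.92). Mtf1 was closest to Fpgs (0.98), Zfp101 (0.98) and Tlk2 (0.96), and Slc30a1 to Degs1 (0.98), Smcr8 (0.98) and Rusc2 (0.98). Without control replicate 2, 5 of these 15 genes were still among the nearest 3, so the lists rest in part on that library.

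Cell composition was measured beside these values, since in whole explants fewer cells of a type and less RNA per cell cannot be told apart. The summed level of 8 Müller glia markers was 2055, 3859, 2073, 4499 and 7241 CPM in the controls and 1200, 1401, 3924 and 2540 CPM with 2-DG, with 3 of 8 markers higher and 5 lower. The means were 3946 ± 2136 CPM (SD, n = 5) and 2266 ± 1253 CPM (SD, n = 4), and 4 of 4 2-DG libraries lay below the control mean. Among them, 2-DG replicate 3 (3924 CPM) lay just under it, and control replicate 5 (7241 CPM) was by far the highest control. Skeletal muscle and red blood cell markers also had 4 of 4 2-DG libraries below the control mean. Astrocyte markers (5 genes) summed to 117 to 510 CPM in the controls and 101 to 438 CPM with 2-DG, with the highest value in control replicate 2. Rod markers were lower with 2-DG in 8 of 8 genes, and their sum without control replicate 2 was 4901 to 13942 CPM in controls and 7167 to 14991 CPM with 2-DG. Ganglion cell markers were lower in 5 of 5 genes, with sums of 234 to 1372 CPM in controls and 172 to 594 CPM with 2-DG, but the highest control without replicate 2 was 574 CPM, so the lower sum with 2-DG rested on that library. Bipolar cell markers were higher in 5 of 5 genes, with sums of 153 to 1774 CPM in controls and 295 to 2830 CPM with 2-DG. Pigment epithelium markers reached 92.2 CPM in 2-DG replicate 3 and 20.3 CPM in replicate 4, against at most 9.50 CPM elsewhere. The part of cell composition in the metallothionein values was not tested.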

How the data were processed

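The authors deposited estimated counts per gene and per transcript, not normalized, and a table of CPM over 12568 genes, treated as a score because some scaled columns sum past the CPM total; the processing notes name kallisto and GRCm38. Columns of the authors' own comparisons were not used. Here estimated counts were rounded (largest change of a total 0.00377%), and genes kept by filterByExpr were tested with edgeR 4.0.16 (TMM, quasi-likelihood, R 4.3.3), 2-DG against control over 9 libraries of 1 batch, with Benjamini-Hochberg adjustment; the threshold was an adjusted p of 0.05. The biological coefficient of variation was 51.5%. Within groups, Pearson's r between libraries was 0.877 to 0.977. The script recovered known changes when tested on simulated data of lower dispersion than these libraries. Deposited CPM values were tested with limma 3.58.1 on log2(CPM + 1). DESeq2 1.42.0, limma-voom, other scalings, no filter, a replicate block and each library left out were alternatives. Named genes were the 5 members, Mt4, listed genes with unadjusted p under 0.05 (or the 2 with the smallest p), the 3 most alike of each member and neighbours within 100 kb. The members and lists were chosen with earlier results of these data known. Gene structures are from GENCODE M21 and promoters from RefSeq GRCm38.p6.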

Additional observations from a re-analysis of the deposited data

Results flagged for a closer look

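Of 74 groups of 4 or 5 libraries examined, 8 held a library whose distance to the nearest other library was over the critical share of the group's range. The critical share is set for about 1 in 20 in a single group. These groups share the same libraries, and some genes were named for a small unadjusted p. A gene and its transcript also count apart, so 8 of 74 cannot be read against that rate. In 6 of these the library was 2-DG replicate 4. It had 117.4 CPM of Slc30a1, against 67.0 to 71.1 CPM in the other 2-DG libraries, and 129.3 CPM of the transcript Slc30a1-201. The same library had 121.2 CPM of Slc40a1, 144.3 CPM of Errfi1, 747 CPM of Gclm and 1500 CPM of Slc7a11, each above the other 2-DG libraries. Control replicate 3 had 58.4 CPM of Mtf1 against 42.9 to 47.3 CPM in the other controls. For the transcript Mt3-202, 2-DG replicate 3 lay low at 1.95 CPM, against 5.50 to 6.10 CPM in the other 2-DG libraries.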

How the results depend on the processing

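Mt1, Mt2 and Mt3 were lower with 2-DG in all 19 alternatives, 1 of which (without control replicate 2 and 2-DG replicate 4) was added after seeing the data. Mt3 kept an unadjusted p under 0.05 in 19 of 19 (0.00166 to 0.0339), and limma-voom gave it an adjusted p of 0.0397, the 1 member passing by that test, where 2 had an unadjusted p under 0.05. The sign turned for 2 genes: Mtf1 was −0.0035 by limma on deposited CPM, and Slc30a1 was −0.044 by limma-voom and −0.11 without both libraries. Leaving out 1 library gave 1 to 3 members, 0 to 16 genes by adjusted p, 921 to 2721 by unadjusted p, 3 to 8 listed genes and 3 to 5 member transcripts. Genes by adjusted p were 0 in the fit reported, 257 by DESeq2, 1222 by limma-voom and 177 without both libraries; by unadjusted p they were 1526, 2650, 5474 and 3340, with 2642 without a filter and 606 on deposited CPM. Listed genes by unadjusted p were 23 by limma-voom, 17 without both libraries and 4 on deposited CPM; by adjusted p they were 3 and 1 in the first pair. Without both libraries 2 members had an unadjusted p under 0.05. Transcript lengths gave control levels of 407 (Mt1), 71.1 (Mt3) and 10.9 (Mtf1) CPM per kb, and 5 of 15 most alike genes remained without control replicate 2. Same-numbered libraries did not all deviate together (r of 0.451, −0.155, 0.102 and 0.205), so the numbers were not taken as pairs. With a replicate block, 0 genes passed, 1351 had an unadjusted p under 0.05 and 3 member transcripts did, and the log2 fold changes were −0.18 (Mt1), −0.40 (Mt2), −0.78 (Mt3, adjusted p = 0.712), 0.055 (Mtf1) and 0.37 (Slc30a1), and the STAT3 median was −0.18. Replicate number 5 exists only among the controls, so in the block fit that library did not enter the comparison of the groups. The causes of these shifts were not tested. In the fit of all 9 libraries, with a biological coefficient of variation of 51.5%, the 95% intervals of Mt1 and Mt2 included 0. The unadjusted interval of Mt3 (−1.34 to −0.22) left out 0, at an estimate close to that of Mt2.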
